A study of Schizosaccharomyces pombe with 6 samples.

Results

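The genes described here encode the factors that build ribosomes in fission yeast, *Schizosaccharomyces pombe*. They were chosen by the words of their Descriptions in the authors' deposited table: rRNA processing, ribosome biogenesis, ribosome assembly, U3 snoRNP or nucleolar, with methyltransferases, mitochondrial factors and ribosomal proteins left out. The rule found 96 genes among the 6345 rows of the table, and every one of the 96 is annotated as protein-coding. Genes that the authors had discarded for few reads could not be found by it. *hpm1*, a methyltransferase of the ribosome, stayed in because its Description spells the word otherwise. The same holds for any methyltransferase whose Description does not use the word, such as *bmt5*, described only as a ribosome biogenesis protein. RNA-seq was performed on 3 wild-type libraries (strain EHB7) and 3 *mkt1Δ* libraries (strain EHB2196), from cells growing exponentially in YES, a rich medium, at 32°C. In *mkt1Δ* cells the *mkt1* gene, which encodes a post-transcriptional regulatory factor, is replaced by the NatR marker. Otherwise the strains share a background: both are h+, both carry the ade6-210 and leu1-32 alleles with ura4-D18, and both have ade6+ inserted in the pericentromere at otr1R(Sph1).

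The level used here is the authors' mean log2 CPM (CPM is the read count of a gene scaled to the size of its library), which is a single value per gene over all 6 libraries of both strains. Levels of the strains were therefore not separated, no spread between replicates can be given for any gene, and no test was run. Depth per library is unknown. Since the mean mixes both strains, it does not check the deletion: *mkt1* itself (SPAC139.01c) had a mean log2 CPM of 6.83, or 47.3 CPM per kb of coding sequence, in the authors' table. To set genes beside each other, the mean CPM was divided by coding length, giving CPM per kb. Differences between genes below are descriptions of this pool of libraries.

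Ribosome synthesis starts in the nucleolus, where RNA polymerase I transcribes a long precursor of the rRNAs. The U3 small nucleolar ribonucleoprotein (snoRNP) and its associated proteins form the small subunit processome on the 5′ part of this precursor, in which the precursor is folded and cleaved towards the 18S rRNA of the 40S subunit. A separate set of factors assembles the 60S subunit in the nucleolus, and later factors release both particles into the nucleoplasm and cytoplasm. Most of these roles were worked out in budding yeast, and unless stated otherwise the roles given here are those of the budding yeast proteins of the same name.

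All 96 genes were expressed in growing cells, with mean log2 CPM values between 4.03 and 9.34 and a median of 5.80. Per kb of coding sequence their median level was 44.8 CPM, against 61.1 CPM for the 5042 protein-coding genes of the table, a ratio of 0.734. Their median thus lay above that of 39.8% of protein-coding genes. With all protein-coding genes ordered by CPM per kb and cut at their quartiles (28.9, 61.1 and 151 CPM per kb), 25 of the 96 fell in the lowest class, 35 in the next, 25 in the one above and 11 in the highest. The standard deviation of log2 CPM per kb across genes was 1.31 for the 96 and 2.19 for all protein-coding genes. It was lower still, at 1.03 and 1.04, for the genes of cytosolic and of mitochondrial ribosomal proteins. Of the 96, 76.0% lay between 20 and 120 CPM per kb, compared with 53.8% of all protein-coding genes. These bounds were not planned in advance. Together the 96 genes took 0.905% of the summed CPM of the table.

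**Figure D1:**
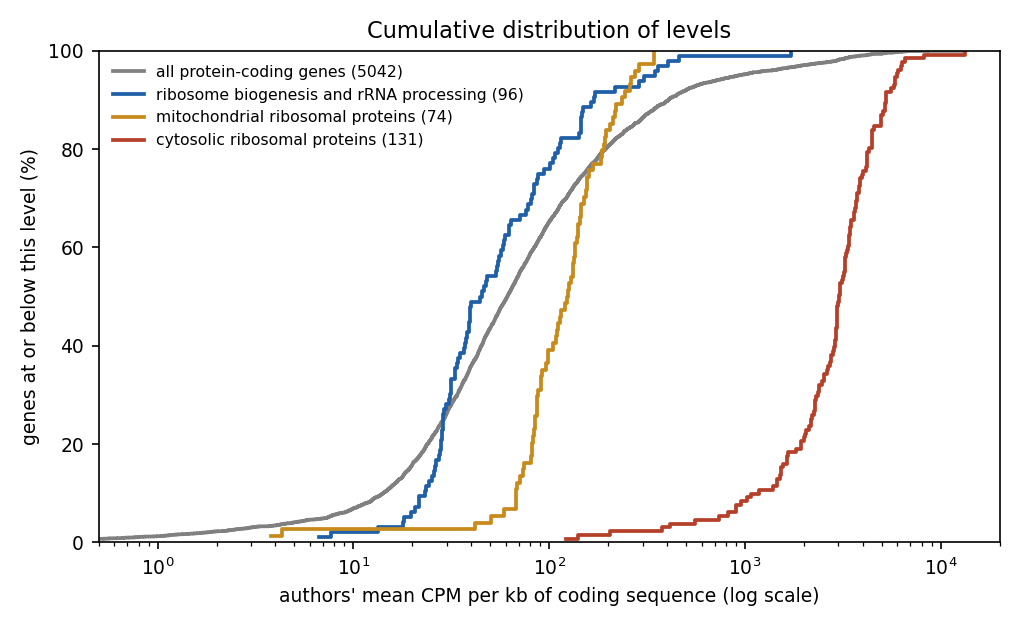
Cumulative percentage of genes (vertical axis) at or below a level, the authors' mean CPM per kb of coding sequence (horizontal axis, log scale), for 4 sets of genes. The ribosome biogenesis curve rises steeply around its median of 44.8 CPM per kb, left of the mitochondrial ribosomal proteins at 124 CPM per kb and far left of the cytosolic ribosomal proteins at 3026 CPM per kb.

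The products that these factors assemble were encoded by far more abundant mRNAs. The 131 genes described as 40S or 60S ribosomal proteins of the cytosol had a median of 3026 CPM per kb, 67.5 times that of the biogenesis factors, and took 19.2% of the summed CPM. Only 1 of the 96 factors, *snu13*, lay above the 5th percentile of these ribosomal protein genes (776 CPM per kb). The 74 genes of mitochondrial ribosomal proteins had a median of 124 CPM per kb. Their 5th percentile, 55.7 CPM per kb, lay above the 44.8 CPM per kb median of the biogenesis factors. The sets overlapped in part: the lower quartile of the mitochondrial set was 85.2 CPM per kb and the upper quartile of the biogenesis factors 89.1.

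The box C/D proteins, which are shared by U3 and many other snoRNAs, had some of the highest levels of the set. *snu13* (SPAC607.03c) was highest, with 1719 CPM per kb and a mean log2 CPM of 9.34. Snu13 binds the kink-turn of box C/D snoRNAs, which guide 2′-O-methylation of rRNA, and it also binds U4 snRNA in the spliceosome. *nop58* (SPAC23G3.06) and *nop56* (SPBC646.10c), which encode the paired core proteins of the same box C/D particles, had 403 and 360 CPM per kb. *gar2* (SPAC140.02), the fission yeast relative of nucleolin, had 348 CPM per kb. These 4 genes had the highest mean CPM of the set, and together they held 25.7% of its summed CPM. The 10 highest genes held 42.9%.

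*tif6* (SPCC1919.09), which keeps immature 60S particles from joining 40S subunits, had 461 CPM per kb and was second of the 96 per kb. *rlp24* (SPAC22E12.13c), a placeholder for a ribosomal protein that joins late, had 305 CPM per kb, and *mrt4* (SPBC11G11.03), a placeholder for the stalk protein P0, had 288 CPM per kb. *rli1* (SPBC14F5.06), an iron-sulfur ATPase that splits ribosomes after termination, had 216 CPM per kb. Of the 96 genes, 6 exceeded 300 CPM per kb: *snu13*, *tif6*, *nop58*, *nop56*, *gar2* and *rlp24*.

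**Figure D2:**
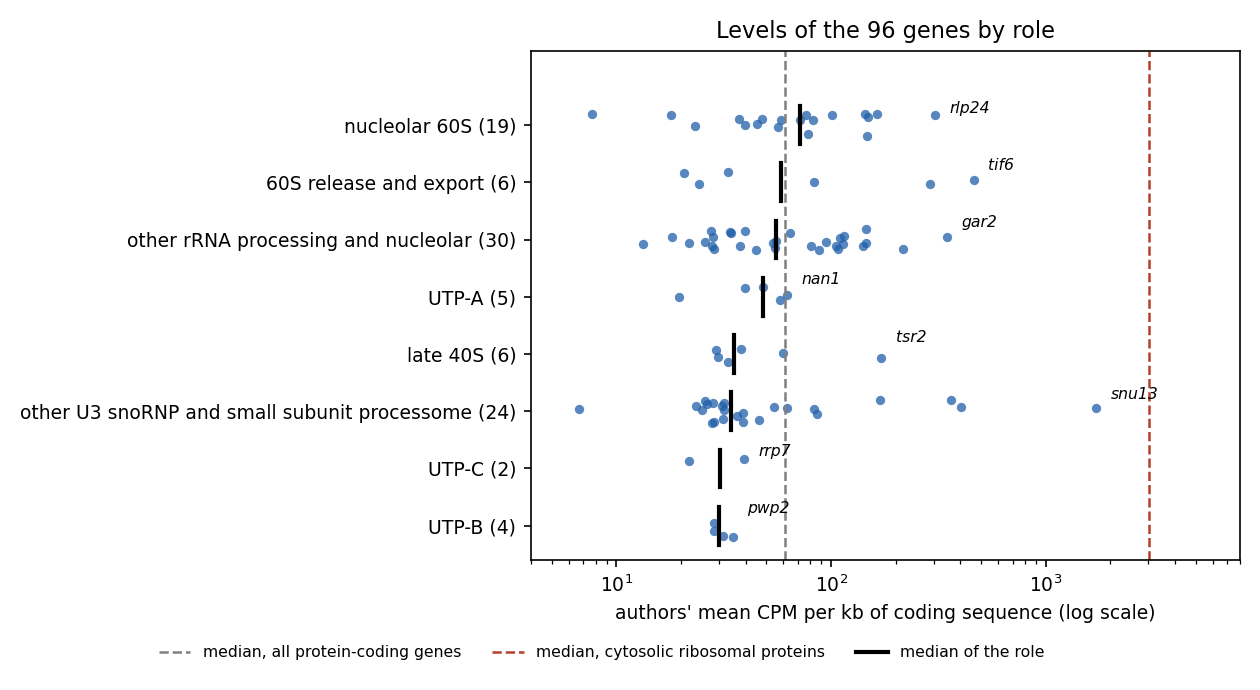
Each point is 1 of the 96 genes at its level, the authors' mean CPM per kb of coding sequence (horizontal axis, log scale), in rows by role with the number of genes in brackets. Black bars are medians of a role, dashed lines are medians of all protein-coding genes (61.1 CPM per kb) and of cytosolic ribosomal proteins (3026 CPM per kb), and the highest gene of each role is named. UTP-B is narrow around 29.9 CPM per kb, whereas the 24 other U3 snoRNP and processome genes run from 6.69 to 1719 CPM per kb.

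The processome itself is built from preformed modules. UTP-A is the module that binds the nascent precursor first. Its 5 genes among the 96 had 19.6 CPM per kb for *utp10*, 39.7 for *utp5*, 48.1 for *utp4*, 57.9 for *utp15* and 62.3 for *nan1*, the gene for Utp17. Thus *nan1* alone exceeded the median of all protein-coding genes, and *utp10* was the low one. UTP-B follows UTP-A onto the precursor. Here *utp21* had 28.5 CPM per kb, *utp13* 28.6, *utp6* 31.3 and *pwp2* 34.9, where *pwp2* encodes the protein described as Utp1. *dip2* and *utp18*, whose Descriptions hold none of the rule's words, complete UTP-B and had 36.7 and 24.4 CPM per kb. All 6 subunits of UTP-B therefore lay between 24.4 and 36.7 CPM per kb, while their coding lengths run from 1467 to 2769 nucleotides.

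Both smaller modules also lay under the median of all protein-coding genes. Of UTP-C, *rrp7* had 39.2 and *rrp36* 21.7 CPM per kb, and *utp22*, outside the 96, had 19.2. In the Mpp10 complex, which helps the U3 RNA pair with the precursor, *imp4* had 26.0, *mpp10* 26.4 and *imp3* 46.4 CPM per kb. *rrp9*, which encodes the protein specific to the U3 snoRNP, had 28.4 CPM per kb. Per kb of coding sequence, the mRNAs of the box C/D core proteins that Rrp9 joins in the U3 particle were thus 12.7 to 60.6 times higher than *rrp9*. The highest of them, *snu13*, is a short gene. Not divided by length, *snu13* had 650 CPM and *rrp9* 44.7. Protein levels were not measured. The fourth core protein, fibrillarin, is not in the set. The median of the 3 core genes was 13.5 times that of UTP-B.

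**Figure D3:**
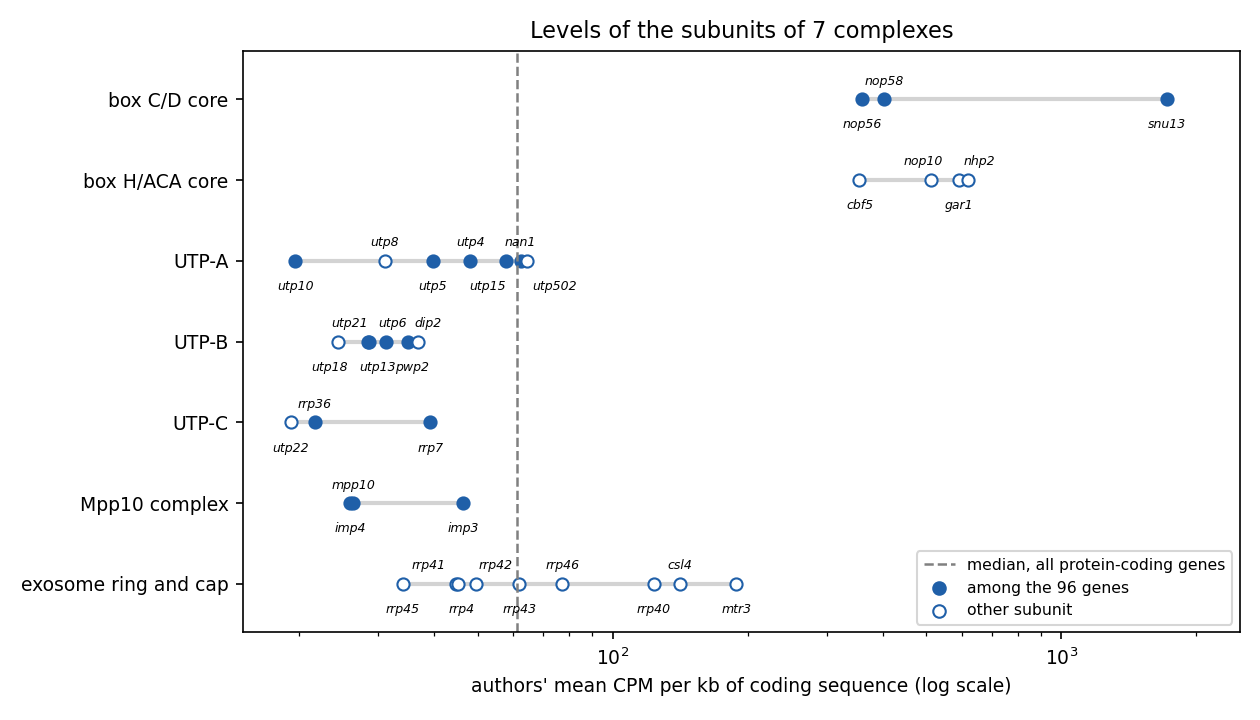
Level of each subunit gene of 7 complexes, as the authors' mean CPM per kb of coding sequence (horizontal axis, log scale). Filled points are among the 96 genes, open points are other subunits, grey bars join the lowest and the highest subunit, and the dashed line is the median of all protein-coding genes. The box C/D and box H/ACA core genes drawn all lie at or above 355 CPM per kb, whereas the subunits of UTP-A, UTP-B, UTP-C and the Mpp10 complex lie between 19.2 and 64.5 CPM per kb. Fibrillarin, also a box C/D core protein, is not drawn.

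The remaining genes of the U3 snoRNP and processome group (24 genes in all, median 34.1 CPM per kb) spread more widely. *utp20* (SPBC56F2.04) had the lowest level of all 96 genes per kb of coding sequence, 6.69 CPM, and the longest coding sequence, 7482 nucleotides. Per kb of transcript *esf2* was lower, at 6.06 CPM against 6.59 for *utp20*. By mean CPM not divided by length, *utp20* had 50.0 CPM and the lowest gene was *rrp1402* at 16.4. Utp20 is a long scaffold of helical repeats. *utp24*, the cleavage enzyme described as Fcf1, had 83.3 CPM per kb, and its relative *utp23* had 36.5. Because the annotated transcript of *utp24* is much longer than its coding sequence, its level was 17.8 CPM per kb of transcript. *rcl1*, needed for cleavage at the same stage, had 169 CPM per kb, the highest of this group after the box C/D genes, and *utp3*, also known as Sas10, had 86.3. *rrp5*, which acts on both subunits, had 23.6 CPM per kb from a coding sequence of 5073 nucleotides. Of the 24 genes, 7 exceeded the median of all protein-coding genes: the 3 box C/D genes, *rcl1*, *utp3*, *utp24* and *utp11* (62.1 CPM per kb). The others included *utp7*, a protein of the processome core, at 54.1 CPM per kb, *sof1* at 31.4, *utp14*, the activator of the helicase that unwinds U3, at 28.0 and *nop14* at 25.2.

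Late factors of the 40S subunit had a median of 35.5 CPM per kb over 6 genes. *ltv1* was lowest at 29.1 CPM per kb, next to *tsr1* at 29.7, *rrp12* at 33.1 and *nob1*, the endonuclease that makes the mature end of the 18S rRNA, at 37.9. *slx9* had 59.4. *tsr2*, whose product escorts a ribosomal protein of the 40S subunit, stood apart at 171 CPM per kb. Thus 5 of these 6 late 40S genes lay under the median of all protein-coding genes. The 7 other genes listed as late 40S factors, whose Descriptions lack the rule's words, had a median of 66.8 CPM per kb. Of these 7, 4 exceeded the median of all protein-coding genes.

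Among the 96, factors of the nucleolar 60S particle had a median of 71.3 CPM per kb over 19 genes, of which 10 exceeded the median of all protein-coding genes. Another 19 genes listed for this particle, outside the 96, had a median of 48.9 CPM per kb, and 4 of them exceeded that median. Within the 96, the short genes *rlp24*, *loc1*, *nsa2*, *rrp14* and *rlp7* lay between 145 and 305 CPM per kb. At the other end were the long genes *urb1* (7.72 CPM per kb) and *urb2* (17.9 CPM per kb), whose products act at an early nucleolar step. *rpf2* and *rrs1*, whose products bring the 5S rRNA into the particle as a pair, had 78.1 and 81.9 CPM per kb. *ytm1*, whose product is removed from the particle by midasin, had 76.4 CPM per kb and *brx1* 71.3. *noc1*, which acts on early 60S precursors, had 37.3 CPM per kb. *ebp2* had 56.8 CPM per kb of coding sequence and 16.8 CPM per kb of its long annotated transcript. Of the Descriptions that name the same protein more than once, Rrp14 has a pair of genes, *rrp14* (SPAC8C9.10c) at 147 CPM per kb and *rrp1402* (SPBC947.07) at 23.3, a ratio of 6.32. Per kb of transcript they had 58.8 and 14.2 CPM. The pair described as Cic1/Utp30 family differed by 3.23 times, with SPAC8F11.04 at 111 and SPCC306.07c at 34.2 CPM per kb. For *rrp12* and the Rrp12-like gene SPBC1105.01 the ratio was 1.28. Whether reads were split between the genes of a pair was not tested.

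Release and export of the 60S particle was covered by 6 genes of the 96, with a median of 58.2 CPM per kb. The 11 other genes listed for this step had a median of 39.8. Besides *tif6* and *mrt4*, *rei1*, a cytoplasmic release factor, had 83.6 CPM per kb. *las1*, the endonuclease that opens the second internal spacer between the 5.8S and 25S rRNAs, had 32.9. *ipi1* and *rix1*, subunits of the Rix1 complex, had 24.3 and 20.6 CPM per kb. Of the 6, the highest gene, *tif6*, and the lowest, *rix1*, were 22.4-fold apart.

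The other 30 genes were not matched by name to the role lists and had a median of 55.3 CPM per kb. Some are relatives of listed proteins whose names did not match in form. They include the Cic1/Utp30 family pair, the Rrp12-like gene SPBC1105.01 and *mis3*, the lists holding Cic1, Utp30, Rrp12 and Krr1. Other such relatives were not searched for. After *gar2* and *rli1*, the highest were *sqt1*, a chaperone of a ribosomal protein, at 146 CPM per kb and SPBC16H5.08c, an ATPase of the Arb family, at 145. The lowest were SPBC56F2.07c, described as an AAA family ATPase that recycles biogenesis factors, at 13.3 CPM per kb and *kri1* at 18.1. *mis3*, the relative of budding yeast Krr1, to which Kri1 binds, had 27.8 CPM per kb. *nat10*, which encodes the acetyltransferase of 18S rRNA, had 28.5. Following SPBC16H5.08c in this group, *fyv7* had 141 CPM per kb, *efg1* 115 and *cgr1* 113, and *hpm1* had 105. *lto1*, whose product helps to load the iron-sulfur clusters of Rli1, had 80.7 CPM per kb, less than *rli1* itself at 216. *dnt1*, a nucleolar protein that restrains the septation network in fission yeast, had 44.5 CPM per kb. Of the 30 genes, 14 exceeded the median of all protein-coding genes.

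Level per kb was lower in longer genes of the set. Across the 96 genes Spearman's rho between CPM per kb and coding length was -0.55, and across all protein-coding genes it was -0.38; coding length enters both axes, and the genes share their libraries. Mean CPM not divided by length rose with coding length, with rho of 0.36 across the 96 genes and 0.16 across all protein-coding genes. Up to 600 nucleotides of coding sequence, 16 genes of the set had a median of 107 CPM per kb, against 144 for protein-coding genes of that length. Between 600 and 1200 nucleotides the medians were 47.7 and 72.5 CPM per kb, and between 1200 and 2400 nucleotides they were 33.8 and 50.0. Above 2400 nucleotides, 16 genes of the set had a median of 25.5 CPM per kb and protein-coding genes 25.8. Per kb the biogenesis factors therefore lay under protein-coding genes of like length in the 3 shorter classes, at ratios of 0.658 to 0.742. In the longest class they were level with them, at 0.986. These protein-coding genes include the 96 themselves and the ribosomal protein genes. Not divided by length, the set's median CPM from the shortest class up was 49.7, 38.3, 69.8 and 77.8. For protein-coding genes it was 59.5, 63.4, 83.8 and 86.4.

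**Figure D4:**
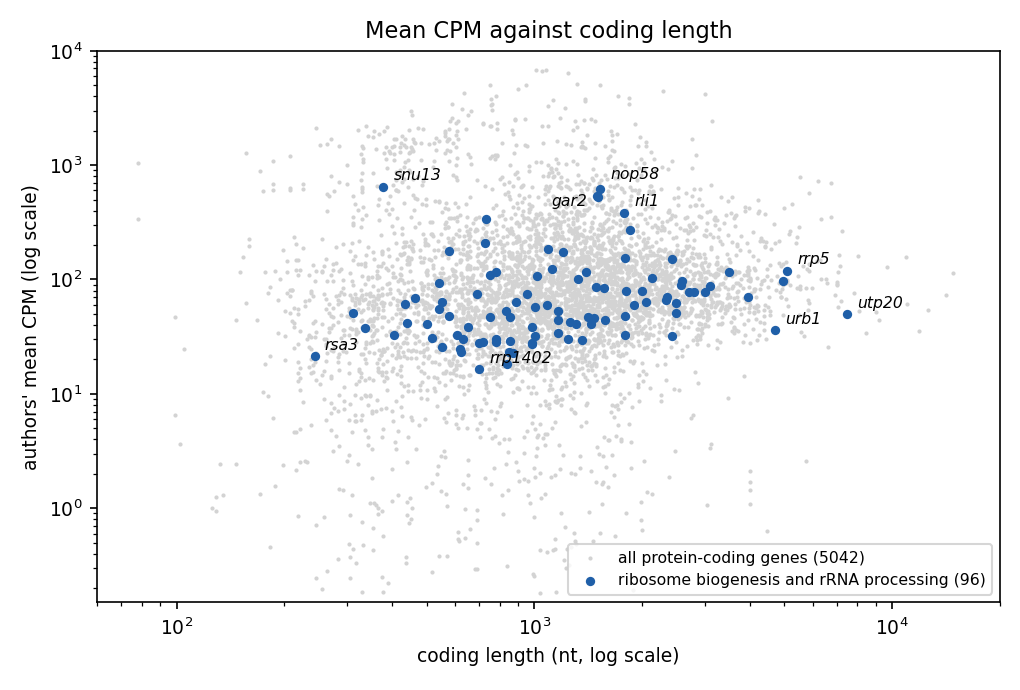
The authors' mean CPM (vertical axis, log scale) against coding length in nucleotides (horizontal axis, log scale) for the 96 genes (blue) and all protein-coding genes (grey). The 96 genes lie in a band from 16.4 CPM (*rrp1402*) to 650 CPM (*snu13*), with *utp20* at 50.0 CPM and 7482 nucleotides at the right end.

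The 96 genes are spread over the genome, with 46 on chromosome I, 34 on chromosome II and 16 on chromosome III, which are 47.9%, 35.4% and 16.7% of the set. Of all protein-coding genes, 45.6%, 36.5% and 18.0% lie there. In the order of protein-coding genes in the ASM294v3 annotation, 4 of the 96 genes stand next to another (4.17%, Wilson 95% interval 1.63% to 10.2%), as 2 divergent pairs. The interval treats the genes as independent draws, although neighbours are counted in pairs. The share for genes placed at random was not computed, so the count does not show clustering or its absence. *ytm1* and *pxr1* had 76.4 and 55.1 CPM per kb, a ratio of 1.39, while *yar1* and *nop8* had 94.3 and 28.3, a ratio of 3.33. With non-coding genes counted in the order, or with the rule narrowed to rRNA processing and U3 snoRNP, the share was 0%. A single coding exon was annotated for 44 of the 96 genes (45.8%) and for 52.9% of all protein-coding genes.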

How the data were processed

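The libraries were stranded and poly(A)-selected (TruSeq). According to the study's methods and the submitters' processing notes, trimming was done with cutadapt 1.8.3, alignment to ASM294v2 with STAR 2.5, counting with HTSeq 0.6.1 (union mode, which drops reads overlapping several genes), and genes with few reads were discarded. The authors' deposited table gives mean log2 CPM from edgeR 3.12.0 over all libraries, the only measurement used here. Its other columns hold the authors' own comparison of the strains (fold change, p-value and FDR) and were not used, so no test between strains was made.

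Mean CPM was taken as 2 to the power of the deposited value. Symbols, lengths and gene order came from the ASM294v3 annotation, in which 6299 of the 6345 rows and all 96 genes were found by identifier. As this is another build, no coordinates or sequences are given. The rule for naming genes took the 5 highest and 5 lowest per kb, the highest and lowest of each role, all of UTP-A, UTP-B and UTP-C, and *mkt1*; other names were added with values known. Members, role lists and complexes were chosen with earlier results of these data known. The membership rule and the neighbour count were checked on small made-up examples. Simulated levels checked only the arithmetic of dividing by length, not the summaries themselves. Python 3.11.15, numpy 2.4.6, pandas 2.3.3, scipy 1.17.1 and matplotlib 3.10.9 were used.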

Additional observations from a re-analysis of the deposited data

How the results depend on the processing

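The median level of the set per kb, its ratio to all protein-coding genes and its share of the summed CPM each held within 1.5-fold under the alternatives run for them. Over those alternatives the median level ran from 32.7 to 44.8 CPM per kb, the lowest with transcript length in place of coding length. With no division by length the median was 55.9 CPM, which is in another unit and cannot be set against the level per kb. The ratio to all protein-coding genes ran from 0.715 to 0.814 and the share of the summed CPM from 0.673% to 0.925%. Per kb of transcript, UTP-B spanned 1.62-fold and the box C/D core median was 322 CPM per kb, against 26.5 for UTP-B, while the box H/ACA median went from 552 to 283 and that of the exosome ring and cap from 61.9 to 33.4. The share of genes next to another of the set fell to 0% among the 50 genes described by rRNA processing or U3 snoRNP alone, which leaves out *ytm1*, *pxr1*, *yar1* and *nop8*, and to 0% in the order of all annotated genes, in which non-coding genes are counted between them. Transcript length, the order of all genes and leaving out the 4 highest genes were chosen after seeing the data. No filter on low values removed a gene of the set, and the exclusion words removed none. No paired analysis was possible because the level is a mean over all libraries; for the same reason leaving out each library, other normalizations and count tests were not run. Motif windows and strands were not run because the reference is another build.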

Other observations

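Of the genes on the role lists, 63 others have Descriptions without the rule's words, and 6 genes that share only a name with a listed gene, *drs1* (an aspartate-tRNA ligase) among them, were left out. These 63 had a median of 45.8 CPM per kb, close to the 44.8 CPM per kb of the 96 genes. By role the medians lay further apart, as for late 40S genes, at 66.8 CPM per kb against 35.5 within the 96. The box H/ACA proteins, which carry the pseudouridylation guides, were again the high ones: *cbf5*, the enzyme, had 355 CPM per kb, *nop10* 513, *gar1* 590 and *nhp2* 621. Per kb of transcript they had 273, 293, 337 and 248 CPM, so that *nhp2* went from the highest to the lowest of the 4. The lowest was *mdn1*, the gene for the very large AAA ATPase midasin that strips factors from the 60S particle, at 5.15 CPM per kb. Among RNA helicases, *dbp7*, *rok1*, *spb4* and *mak5* had 11.4, 12.3, 17.7 and 20.1 CPM per kb, and *ddx27* had 31.4, *has1* 41.9 and *dbp3* 92.7.

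The exosome trims the 3′ ends of rRNA precursors. The 9 genes of its ring and cap had levels from 34.1 CPM per kb for *rrp45* to 189 for *mtr3*, a 5.54-fold range, against 24.4 to 36.7 CPM per kb over the 6 subunits of UTP-B. Its catalytic subunits *dis3* and *rrp6* had 27.8 and 29.6 CPM per kb, and the helicase *mtr4* 27.1. *utp502*, counted with UTP-A through its older name utp5, had 64.5 CPM per kb, and *utp8* had 31.0. Over all 7 genes UTP-A spanned 3.29-fold. No test was made of any of these differences, since each gene has a single mean value.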
